A study of Mus musculus with 38 samples.

Results

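Broad promoter clusters are described here in the soleus muscle of mice before, during and after fasting-induced torpor. A promoter cluster was called broad when its end minus its start was 400 bp or more in the deposited table, and 3006 of 10819 clusters (27.8%) met this rule. The rule used only the coordinates of a cluster, not its level or its change in any group. The coordinates were themselves drawn from the sequenced tags, and broad clusters made up 12.6% of the clusters in the lowest of 10 equal bins of level and 46.0% in the highest. The other 7813 clusters were therefore set beside them at like level, which means that each value for the other clusters was taken within these 10 bins of mean level (CPM, tags scaled to a common library total) and averaged with the number of broad clusters per bin as the weight.

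Transcription by RNA polymerase II starts at a single position in some promoters and over a wide stretch of DNA in others. Sharp starts are known from promoters with a TATA box, and wide ones from CpG islands, which serve many genes that most cells use. The first base of a capped RNA is usually a purine that follows a pyrimidine, a step known as the initiator. Tags also fall along the inside of exons of abundant RNAs, where a cap may mark a processed RNA rather than a start of transcription.

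The libraries were made by nAnT-iCAGE, which captures the capped 5′ ends of RNA and sequences them without amplification, so that each tag marks a 5′ end. All mice were young adult males of the inbred strain C57BL/6J, with no allele or agent added in any group, and each mouse gave 1 library of soleus, a postural muscle rich in slow fibers. The Pre mice had free access to food and were sampled on day 1. The Mid mice were sampled on day 2 after food had been withdrawn at a low ambient temperature, when mice of this kind are in or between bouts of torpor. The Post mice were sampled on day 3 after food was returned. The HiT mice were kept at a high ambient temperature, the Fed mice kept their food at a low ambient temperature, and the Dep mice had their food withdrawn and were touched whenever their oxygen use began to decline, which deprives them of torpor, all sampled on day 2. The 28 libraries of experiment #1 came from 8 Mid mice and from 4 mice in each of the other 5 groups, and the 10 libraries of experiment #2 from 5 Mid, 3 Post and 2 Pre mice. The sources differ on food, since the design text gives the HiT mice food and the label of the Fed samples is starvation, whereas the methods of the study describe fasted HiT mice and Fed mice with food. The methods were followed. Whole soleus was used, so that fewer cells of a type and less RNA per cell cannot be told apart in any difference below. The p-values measure the spread between single mice.

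The sequence around the listed peak, the position with most tags, is shown for the widest broad clusters, for 1 of the highest and for the cluster with the largest change in each direction from Pre to Mid, because the letters at the start site differ between them. Each is read 5′ to 3′ on the strand of the cluster from RefSeq promoter windows and GENCODE M21 transcripts in mm10, and the capitals mark the bases 1 and 2 bp after the listed peak. The windows are chrM:581-610 on the plus strand for the mitochondrial cluster that is listed with mt-Tv, chr19:9018150-9018250 on the plus strand for Ahnak, chr2:76747970-76748070 on the minus strand for Ttn, and chrM:14057-14086 on the minus strand for mt-Nd6. They are chr7:126463079-126463160 on the minus strand for Atp2a1, chr8:94172767-94172796 on the plus strand for Mt2, and chr4:143349806-143349835 on the plus strand for Lrrc38.
mt-Tv: actcaaaggacttggcGGtactttatatcc
Ahnak: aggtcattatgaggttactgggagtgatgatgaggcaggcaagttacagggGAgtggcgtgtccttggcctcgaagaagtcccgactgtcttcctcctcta
Ttn: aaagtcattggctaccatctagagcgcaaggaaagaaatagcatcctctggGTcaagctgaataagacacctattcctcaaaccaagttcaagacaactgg
mt-Nd6: atgctgtgtagaaataATgaataattatat
Atp2a1: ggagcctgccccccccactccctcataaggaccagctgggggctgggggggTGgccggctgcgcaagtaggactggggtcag
Mt2: tccgcgtgcttctctcCAtcacgctcctag
Lrrc38: gatccgtcactgaactTAgtcttgagcacc
The capitals form a pyrimidine–purine step in Atp2a1, Mt2 and Lrrc38, all at annotated 5′ ends, and not in the exon clusters of Ahnak and Ttn or in the mitochondrial clusters. Neat1 and Tcap also belong to these sets and are named only.

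The libraries of experiment #1 held 18257657 to 39176649 tags in all clusters together, and those of experiment #2, which were shallower, 9359994 to 20914855. Markers of slow and fast muscle fibers had clusters for 16 of 16 genes and summed to between 18142 and 43353 TPM (tags of a cluster scaled to a common total of mapped tags per library) in the libraries of experiment #1. They were lowest in HiT, at 18142 to 32532 TPM against 28503 to 41425 in Mid. Macrophage markers (9 of 10 genes with a cluster, none of them broad, Adgre1 without one) summed to between 167 and 497 TPM in HiT and between 58.4 and 90.6 in Mid, with no overlap. Smooth muscle and pericyte markers (6 of 7 genes with a cluster) summed to between 1104 and 2114 TPM in HiT and between 719 and 1030 in Mid, but without Mustn1, which is 1 of them, to between 343 and 585 in HiT and between 537 and 766 in Mid. Tendon and fibroblast markers summed to between 2553 and 6834 in HiT and between 2186 and 3152 in Mid. The part of these cells in the differences with HiT was not tested. The library Mid 6 stood apart from the other Mid libraries in several broad clusters below.

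Most broad clusters lay at annotated 5′ ends, but the widest did not. Their width had a median of 543 bp and a mean of 693 bp, against a median of 226 bp in the other clusters, and they covered 53.8% of all bases in clusters. The limit had no gap around it, since 16 clusters were exactly 400 bp wide and 16 were 1 bp narrower, and the 141 clusters of the first 10 bp above the limit had a median of 27.9 TPM against 22.3 TPM in the 153 clusters of the last 10 bp below it. An annotated 5′ end lay within 500 bp of the peak, on its own strand, for 2614 broad clusters (87.0%) and for 91.7% of other clusters at like level. Another 250 (8.32%) had their peak in an exon, 68 in an intron, 66 outside genes and 8 on the mitochondrial genome, where all clusters were broad. The share at 5′ ends was 92.5% at 400 to 499 bp (1165 clusters), 90.1% at 500 to 699 bp (1102), 87.7% at 700 to 999 bp (455), 64.6% at 1000 to 1999 bp (209) and 12% at 2000 bp or more (75). Of the 75 widest, 60 were in exons.

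The widest clusters of all were named after their values were seen. The widest cluster covered 17340 bp of Ahnak (chr19:9001693-9019032, plus strand), a giant scaffold protein of the cell membrane. The next covered 17142 bp of Ttn (chr2:76736063-76753204, minus strand), which encodes titin, the molecular spring of the sarcomere. A single cluster covered most of the plus strand of the mitochondrial genome, with 27 annotated 5′ ends inside. Exons of Cmya5 (9315 bp), Xirp2 (9290 bp), Plec (7374 bp) and Naca (6033 bp) followed, and then an exon cluster listed with Cx3cr1 (6024 bp). The Ttn gene alone held 148 clusters, of which 26 were broad, and its highest cluster was 394 bp wide, just under the limit, at 4014 TPM. Among broad clusters assigned to a gene by a 5′ end, the widest outside the mitochondrial genome were those of the nuclear RNA Neat1 (3719 bp), the slow myosin heavy chain Myh7 (3357 bp), Fem1a (3233 bp) and the skeletal actin Acta1 (3168 bp).

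The 250 broad exon clusters belonged to 189 genes, and 177 of them lay to at least 95% in exons. At least 95% coding sequence was found in 54, and no coding sequence in 43. Their median width was 940 bp and their median level 11.8 TPM, against 531 bp and 29.4 TPM at 5′ ends.

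The genes of broad clusters were mostly protein-coding. Of the clusters assigned to a gene, 95.2% of the broad and 89.4% of the others belonged to protein-coding genes, and 52 broad clusters (1.99%) against 549 others (7.85%) belonged to processed pseudogenes. In total, 2618 broad clusters were assigned to 2508 genes, 102 genes had 2 or more, and 1786 broad clusters held 2 or more annotated 5′ ends. The mean number of annotated 5′ ends inside was 2.38 for broad clusters and 2.48 for others of like level. The extra width lay mainly downstream. The median distance from the peak was 196 bp to the upstream edge and 348 bp to the downstream edge, against 89.6 and 126 bp in other clusters of like level, and the peak lay at 34.6% of the width from the upstream side against 40.2%.

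The start sites of broad clusters at 5′ ends had the letters of an initiator, and those over exons did not. Peak windows could be read for 2305 of the 3006 broad clusters. A pyrimidine–purine step lay 2 bp downstream of the listed peak in 80.6% of the broad clusters at 5′ ends (n = 2049), 1 bp downstream in 4.2% and at the listed peak itself in 20.8%. The value was alike on both strands, at 80.0% on the plus strand and 81.2% on the minus strand. Other clusters at 5′ ends had the step in 77.7% (n = 5327), broad exon clusters in 17% (n = 224) and other exon clusters in 15.4% (n = 201). The peaks as listed lie most often 2 bp before an annotated 5′ end (1394 clusters, 355 of them broad), and why the listed peak is displaced by 2 bp from the step was not tested. The median GC content of the 101-base window was 69.3% for broad clusters at 5′ ends and 67.0% for others of like level. It was 50.5% for both broad and other exon clusters. The ratio of observed to expected CpG dinucleotides was 0.912 for broad clusters at 5′ ends and 0.921 for others of like level there. Over exons it was 0.311 for broad and 0.449 for other clusters. TATAAA on the strand of the cluster, searched from 20 to 40 bp before the listed peak, was found in 3.08% of all broad clusters with a window and in 3.04% of others of like level.

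**Figure D1:**
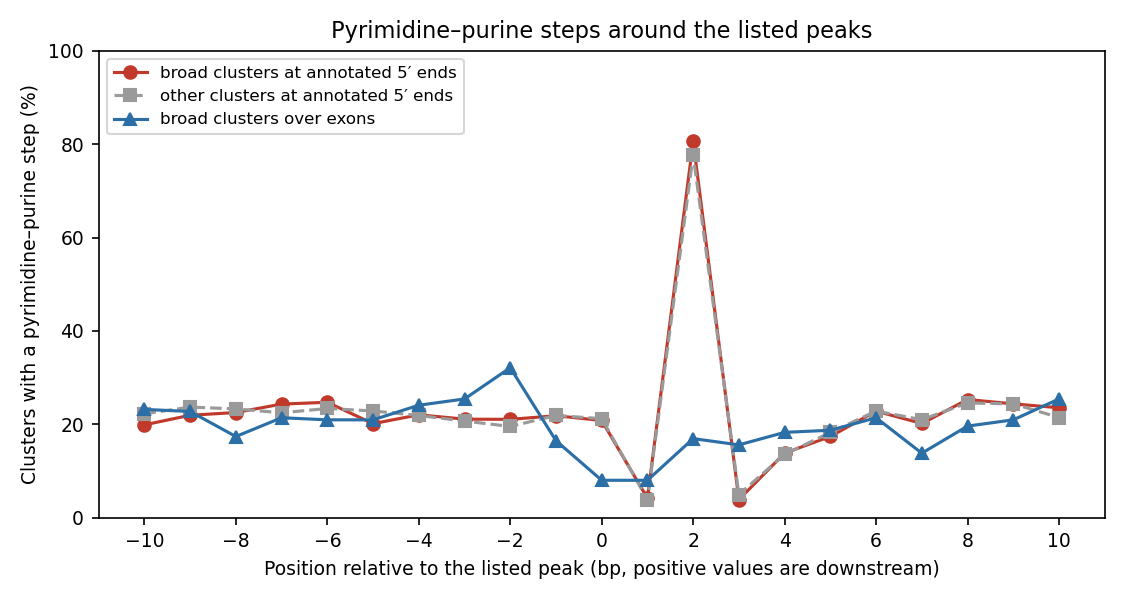
Percentage of clusters (vertical axis) with a pyrimidine–purine step at each position relative to the listed peak (horizontal axis, in bp, positive values downstream), for broad clusters at annotated 5′ ends, other clusters at 5′ ends and broad clusters over exons. Both kinds of cluster at 5′ ends peak 2 bp downstream, at 80.6% and 77.7%, where the exon clusters are at 17%.

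In every library, broad clusters held more tags than all others together. Their share of the cluster tags ranged from 54.1 to 61.1% over the libraries of experiment #1, with a median of 57.8%, and from 57.8 to 60.3% over those of experiment #2, with a median of 58.6%. A few clusters of repeated or mitochondrial RNA held much of this. The 5 highest were an exon cluster of Gm42418 (5076 bp, 85956 TPM), the mitochondrial plus-strand cluster (28309 TPM), a 485 bp cluster outside genes on chromosome 3 (20312 TPM), an intron cluster of Cmss1 (19983 TPM) and an exon cluster of Lars2 (15195 TPM), which were named after their values were seen and whose reads may belong to other copies. Without these 5 the medians were 48.7 and 52.3%. Muscle genes came next. The highest assigned broad clusters outside the mitochondrial genome were those of Atp2a1, the calcium pump of fast fibers (1060 bp, 8563 TPM), the titin cap Tcap (1973 bp, 7364 TPM), the cytochrome oxidase subunit Cox6a2 (609 bp, 7028 TPM), the small heat shock protein Cryab (998 bp, 6779 TPM), the slow myosin light chain Myl3 (577 bp, 6396 TPM) and the tropomyosin Tpm2 (728 bp, 6180 TPM). In these levels tags of a cluster are not divided by length, since each RNA gives 1 tag.

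Relative to other clusters of like level, broad clusters of experiment #1 were lowest in HiT and highest in Fed. The value for a library is the median log2 level of broad clusters against the average of all libraries of the experiment, minus the same median for the others. The 4 HiT libraries ranged from -0.12 to -0.0536, the 8 Mid libraries from -0.0143 to 0.18 with a median of 0.0277, and the 4 Fed libraries from 0.0486 to 0.13. HiT did not overlap with Mid or Fed, whereas Mid and Fed did. Dep lay between -0.0732 and 0.0247, Post between -0.11 and 0.014, and Pre between -0.0316 and 0.0316. In experiment #2 the medians were 0.0121 in Pre, -0.000826 in Mid and 0.000563 in Post, and the ranges overlapped. The values are small, and they are a description over many clusters with no test.

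**Figure D2:**
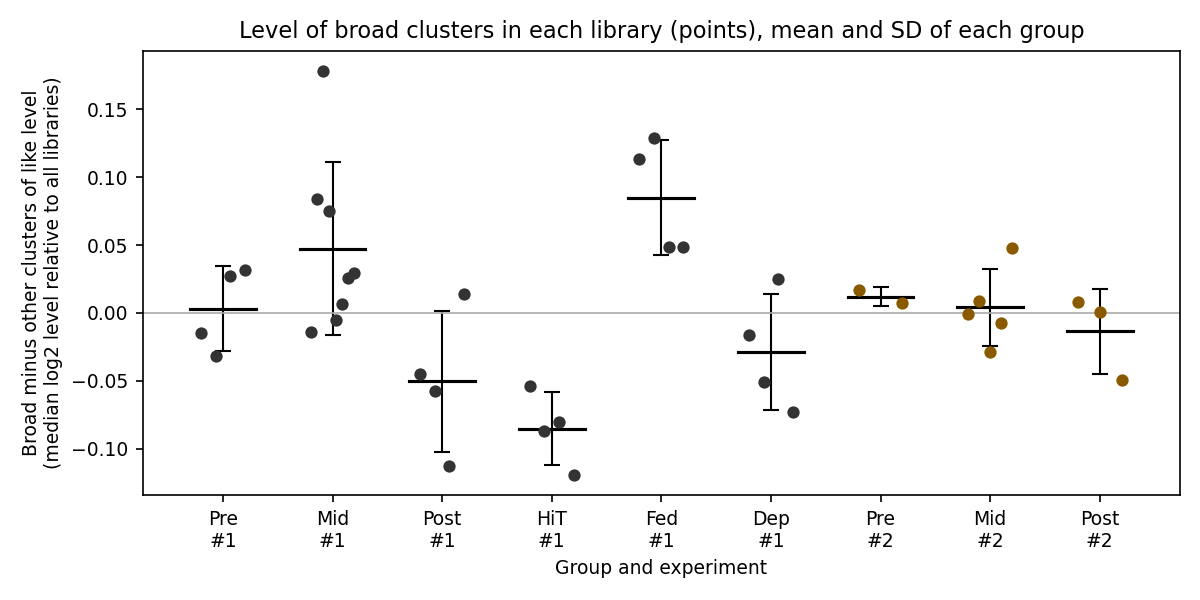
Median log2 level of broad clusters minus that of other clusters of like level (vertical axis, relative to all libraries of the experiment) for each library (points) of the groups of both experiments (horizontal axis), with the mean and SD of each group. The 4 HiT libraries lie between -0.12 and -0.0536, below all 8 Mid libraries of experiment #1.

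The comparison of HiT with Mid asks what differs between the muscle of a warm mouse that stays out of torpor and that of a mouse in or between bouts of torpor. It was the comparison in which broad clusters stood furthest from the others. With all 28 libraries of experiment #1 in an edgeR fit, 864 broad clusters (28.7%) were higher in Mid than in HiT and 436 (14.5%) were lower, at a false discovery rate (FDR) under 0.05 over all clusters. The same calls were made for 19.2% and 21.8% of all 10776 clusters tested, and for 18.4% and 24.1% of other clusters of like level. The share higher in Mid was above that of the other clusters in 10 of 10 bins of level and the share lower in 0 of 10. The median log2 fold change was 0.13 for broad clusters and -0.00892 for others of like level, and 63.6% against 49.1% were positive. Clusters at annotated 5′ ends alone gave 29.7% against 19.2% higher and 15.7% against 24.7% lower. With scaling by library size alone the split was 585 higher and 177 lower, and the median of all clusters then moved from 0.0176 to 0.11.

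Without matching for level, these shares followed width over most of its range and not only at the limit of 400 bp. Among the other clusters, those higher in Mid made up 8.07% in the lowest bin of level and 30.6% in the highest. How far level enters the shares by width was not tested. Clusters higher in Mid than in HiT made up 9.43% of those under 100 bp, 11.1% at 100 to 199 bp, 16.4% at 200 to 299 bp and 21.6% at 300 to 399 bp. Above the limit they made up 27.3% at 400 to 499 bp, 29.04% at 500 to 699 bp and 34.3% at 700 to 999 bp. The widest classes were at 29.2% (1000 to 1999 bp) and 12% (2000 bp or more). The share lower in Mid went from 29.4% at 100 to 199 bp to 5.33% at 2000 bp or more. Of the 68 broad intron clusters, 33 were higher in Mid (48.5%), and of the 66 outside genes, 23 (34.8%).

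**Figure D3:**
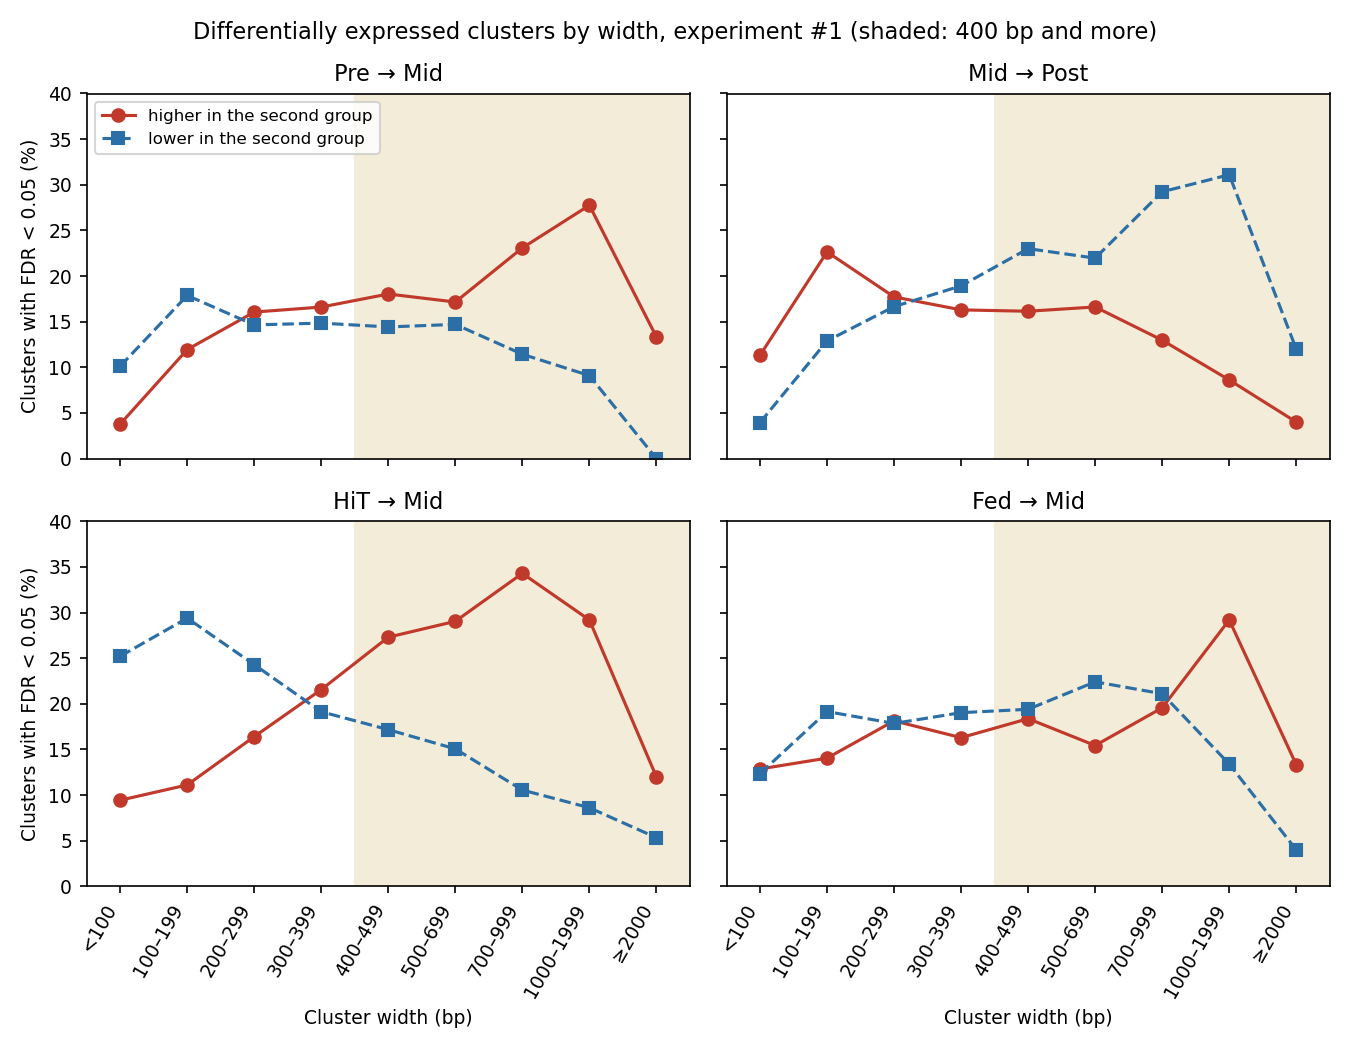
Percentage of clusters with FDR < 0.05 (vertical axes) in each of 9 classes of width in bp (horizontal axes) for 4 comparisons of experiment #1, with clusters higher in the second group as red circles and lower as blue squares. From HiT to Mid the share that is higher grows from 9.43% under 100 bp to 34.3% at 700 to 999 bp while the share that is lower shrinks. The classes are not matched for level.

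**Figure D4:**
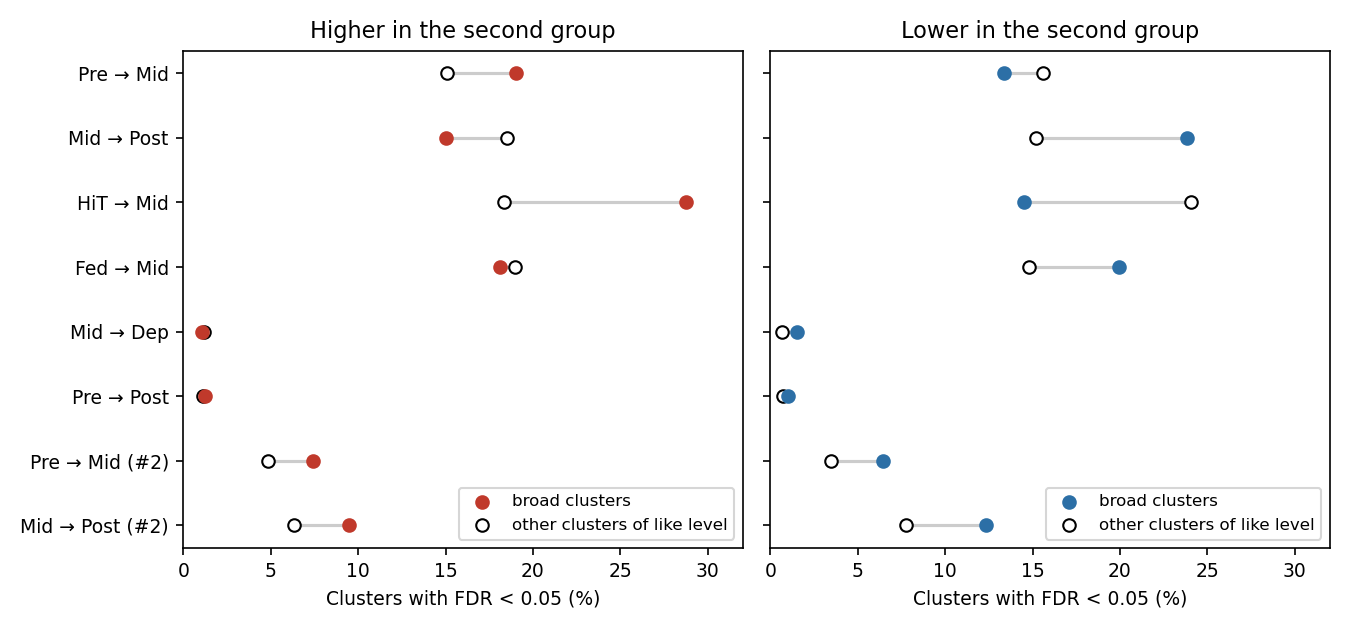
Percentage of broad clusters (filled points) and of other clusters of like level (open points) with FDR < 0.05 (horizontal axes), higher in the second group in the left panel and lower in the right panel, for 8 comparisons (vertical axis, #2 for experiment #2). From HiT to Mid, 28.7% of broad clusters against 18.4% of others are higher and 14.5% against 24.1% are lower.

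Ampd3, an enzyme that removes the amino group of AMP, and Lrch1 were among the broad clusters higher in Mid than in HiT, and Mustn1 and histone genes were lower. The Ampd3 cluster (434 bp, chr7:110772529-110772962, plus strand) was at 21.4, 12.3, 14.9 and 9.63 TPM in HiT and between 17.8 and 106 TPM (median 73.5) in Mid. The groups overlapped only at the highest HiT library, and the log2 fold change was 2.13 (SE 0.25, FDR = 2.48e-07). Lrrc52, an auxiliary subunit of potassium channels, was at 14.4, 11, 10.4 and 7.8 TPM in HiT and between 42 and 81 TPM (median 47.3) in Mid, with no overlap and a log2 fold change of 2.204 (SE 0.22, FDR = 1.69e-08). The RNA Foxo6os (692 bp) was at 5.13, 4.37, 4.1 and 3.82 TPM in HiT and between 12.2 and 21.6 TPM (median 15.4) in Mid, again apart, with 1.75 (SE 0.18, FDR = 2.9e-08). The largest value in this direction, that of the RNA Myhas (470 bp), was 4.59 (SE 1.60, FDR = 0.0234) at very few tags, and it lost the call without HiT 1, 3 or 4 (FDR = 0.0538, 0.0585 and 0.0569).

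The Mustn1 cluster (569 bp, chr14:30879129-30879697, plus strand), of a small nuclear protein of muscle and bone, was at 1529, 1391, 931 and 760.5 TPM in HiT and between 182 and 353 TPM (median 260.4) in Mid. The groups were far apart, and the log2 fold change was -2.23 (SE 0.14, FDR = 9.03e-12). In the other groups its level was nearer to Mid, and it was at 201, 215, 209.8 and 263 in Pre.

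Histone genes gave the largest differences among the named broad clusters in this comparison. The Hist2h3c2 cluster (408 bp) was at 109, 97.3, 28.8 and 52 TPM in HiT and between 1.44 and 3.83 TPM (median 2.34) in Mid, with no overlap and a log2 fold change of -4.92 (SE 0.59, FDR = 2.75e-07). Hist1h2ab gave -4.75 (SE 0.50, FDR = 3.87e-08). Of 15 broad clusters of histone genes (59 histone clusters in all), 12 were lower in Mid than in HiT and 0 higher by edgeR, with a median log2 fold change of -2.67, and the same 12 clusters were called lower under each of the 3 other scalings tried. Histone genes are near-identical copies, so the share of each is uncertain, and their RNA is known to be made mainly in dividing cells. HiT is also the group in which the macrophage markers were highest, and their part in the histone difference was not tested.

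Torpor entry was followed in the comparison of Pre with Mid, and recovery in that of Mid with Post. Pdk4, the kinase that shuts off the oxidation of pyruvate, the metallothioneins Mt1 and Mt2 and the muscle ubiquitin ligases Trim63 and Fbxo32 were among the broad clusters that rose from Pre to Mid and fell again in Post, and the transferrin receptor Tfrc went the other way. From Pre to Mid, 572 broad clusters rose (19.03%) and 401 fell (13.3%), where 15.4% and 14.8% of all clusters did and 15.1% and 15.6% of others of like level. Upper-quartile scaling gave 452 up and 579 down and library size alone 215 up and 268 down, so the direction of this split depends on the scaling, while the share up stayed above that of others of like level in each. Without Mid 6, 652 rose and 410 fell. From Mid to Post, 451 broad clusters rose (15%) and 717 fell (23.9%), against 17.5% and 17.5% of all clusters and 18.5% and 15.2% of others of like level. The share that fell was above that of the others in 10 of 10 bins of level. Upper-quartile scaling gave 595 up and 581 down. The median log2 fold changes of broad clusters were 0.039 from Pre to Mid and -0.0892 from Mid to Post, and those of others of like level were -0.00568 and 0.0153.

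The Pdk4 cluster (941 bp, chr6:5495772-5496712, minus strand) was at 554, 325, 459.5 and 409.6 TPM in Pre, between 1361 and 5885 TPM (median 4889) in Mid and 188, 203, 259.5 and 224 in Post. Mid did not overlap with either, even with its lowest library, Mid 6. The log2 fold changes were 3.42 (SE 0.29, FDR = 2.05e-08) and -4.37 (SE 0.31, FDR = 6.3e-10). In experiment #2 it was at 218 and 253 in Pre, 3520.0, 2143, 2535, 2700.0 and 2942 in Mid and 91.8, 95.5 and 89.4 in Post, again apart. The cluster was also high in the groups kept from torpor by warmth or touch, at 5706, 3830.0, 3812 and 2979 in HiT and 3876, 4659, 5687 and 4047 in Dep, and low in Fed at 251, 535, 752 and 298. HiT and Dep both lay within the range of Mid, whereas Fed lay below it with 3.41 (SE 0.29, FDR = 3.97e-08). The range of Mid reached down to 1361 TPM only in Mid 6. The other Mid libraries were at 4534 to 5885 TPM, above some of the HiT and Dep libraries.

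Mt2, a metallothionein that binds zinc and copper, showed the largest change of an assigned broad cluster from Pre to Mid. Its 739 bp cluster (chr8:94172448-94173186, plus strand) was at 25, 21.1, 12 and 23 TPM in Pre, between 31.9 and 1192 TPM (median 306) in Mid and 16.2, 13.3, 16.8 and 21.5 in Post. Mid was wide but did not overlap with Pre or Post, and the changes were 4.43 (SE 0.59, FDR = 3.82e-06) and -4.62 (SE 0.60, FDR = 1.48e-06). In experiment #2 it was at 85.3 and 70.2 in Pre and 2382, 322, 1564, 2201 and 2952 in Mid, with 4.68 (SE 0.81, FDR = 0.00628), and the call was lost without Pre 5 or Pre 6 (FDR = 0.0711 and 0.0782). Fed was at 7.2, 13, 17.5 and 17.2, below Mid by 5.03 (SE 0.61, FDR = 9.72e-07), and HiT at 561, 523, 328 and 253, within the range of Mid. The neighbouring Mt1 (539 bp) rose by 2.74 (SE 0.37, FDR = 5.01e-06). Slc39a14 (418 bp), a zinc transporter, was at 0.901, 0.495, 0.603 and 1.28 TPM in Pre, between 1.7 and 10.5 TPM (median 7.75) in Mid and 0.0995, 0.222, 0.306 and 0.0682 in Post, apart in both steps. It rose by 3.22 (SE 0.44, FDR = 5.29e-06) and changed by -5.39 (SE 0.53, FDR = 3.18e-08) from Mid to Post.

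Lrch1, Arpp19 and Ampd3 also rose. Lrch1 (566 bp, chr14:74899531-74900096, minus strand) was at 1.87, 1.33, 0.678 and 1.43 TPM in Pre, between 4.4 and 25.5 TPM (median 20.5) in Mid and 0.63, 1.15, 0.995 and 1.4 in Post, with no overlap and a rise of 3.9 (SE 0.36, FDR = 3.61e-08). Ampd3 was at 9.78, 9.09, 8.02 and 10.9 in Pre and 6.01, 8.61, 6.89 and 9.27 in Post, below all Mid libraries, with 2.92 (SE 0.27, FDR = 3.53e-08) and -3.16 (SE 0.27, FDR = 5.27e-09). Arpp19 (416 bp), a regulator of protein phosphatase 2A, rose from 1.29, 0.685, 1.28 and 1.13 TPM in Pre to between 1.7 and 11.4 TPM (median 9.19) in Mid but stayed at 7.4, 8.42, 4.82 and 13.8 in Post. From Pre to Post it gave 2.99 (SE 0.39, FDR = 5.8e-05), and Mid and Post overlapped.

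Among the broad clusters that fell, Tfrc (463 bp, chr16:32608739-32609201, plus strand) was at 53.6, 75.2, 66.8 and 78.6 TPM in Pre, between 8.89 and 19.1 TPM (median 11.4) in Mid and 43.6, 40.05, 45.6 and 56.6 in Post. The transferrin receptor takes up iron. Mid lay below both other groups, with -2.302 (SE 0.18, FDR = 7.94e-09) and 1.81 (SE 0.18, FDR = 3.23e-08), and HiT was lower still at 7.83, 7.97, 7.95 and 4.41. Lrrc38 (784 bp, chr4:143349591-143350374, plus strand), an auxiliary subunit of potassium channels, was at 13.3, 19.1, 15.9 and 17.7 in Pre, between 1.42 and 5.72 TPM (median 1.77) in Mid and 7.93, 11.6, 9.49 and 13.5 in Post, without overlap. It changed by -2.68 (SE 0.30, FDR = 4.78e-07) and 2.097 (SE 0.30, FDR = 6.81e-06). Mchr1 (471 bp), a receptor of melanin-concentrating hormone, changed by -2.39 (SE 0.33, FDR = 6.66e-06) and 3.37 (SE 0.33, FDR = 3.15e-08). Kbtbd13 (686 bp), mutated in a nemaline myopathy, changed by -2.27 (SE 0.30, FDR = 3.1e-06) and 2.13 (SE 0.30, FDR = 4.59e-06). The muscle protease Ky, exactly 400 bp wide, changed by -1.81 (SE 0.22, FDR = 1.54e-06) and 2.17 (SE 0.22, FDR = 5.12e-08). Gm22175, whose cluster was 1557 bp wide, changed by -2.54 (SE 0.71, FDR = 0.00789), and the call was lost without Pre 2 (FDR = 0.0773).

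**Figure D5:**
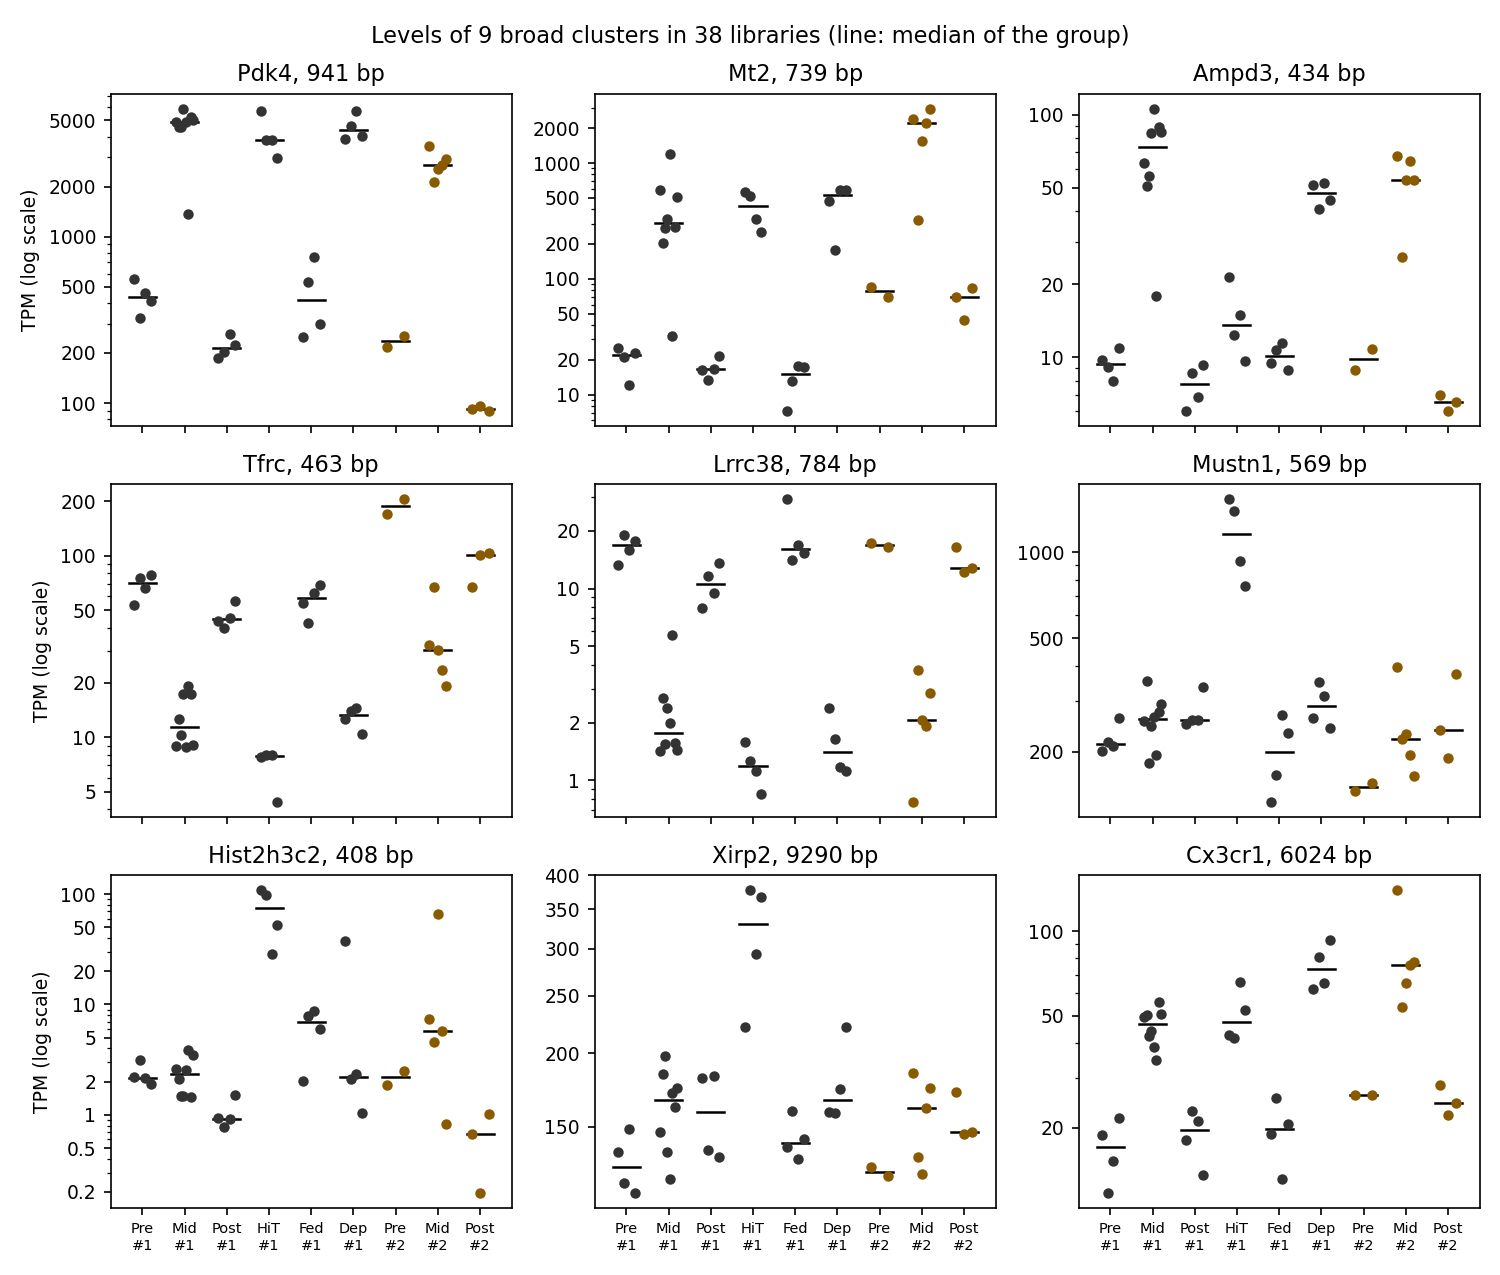
TPM on a log scale (vertical axes) of 9 broad clusters in 38 libraries (points), by group and experiment (horizontal axes, #1 and #2), with lines at the group medians. Pdk4, Mt2 and Ampd3 are high in Mid and low in Pre, Post and Fed, Tfrc and Lrrc38 are the reverse, and Mustn1 and Hist2h3c2 are high in HiT.

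Experiment #2 repeated these steps with fewer mice. From Pre to Mid, 223 broad clusters rose (7.42%) and 194 fell (6.45%), where 5.30% and 4.44% of all clusters did and 4.84% and 3.47% of others of like level. From Mid to Post, 284 rose (9.45%) and 370 fell (12.3%), where 7.73% and 8.65% of all clusters did and 6.35% and 7.73% of others of like level. Upper-quartile scaling gave 361 up and 313 down in the second step, and library size alone 376 and 281. Of the 417 broad clusters called from Pre to Mid, 347 were called in the same direction in experiment #1, which is 83.2% of these 417 and 35.7% of the 973 called there. From Mid to Post, 559 of 654 were shared, 85.5% of these and 47.9% of the 1168 of experiment #1. Among the other clusters, 84.8% and 83.05% of the calls of experiment #2 were shared in these steps. These were 23.6% and 35.6% of their calls of experiment #1. No broad cluster was called in opposite directions. The count from Pre to Mid of experiment #2 was 121 without Pre 5 and 116 without Pre 6, since 1 Pre library is then left. A test of the difference between experiments by edgeR called 0 broad clusters in either step, and also 0 of the 7767 other clusters. An unadjusted p under 0.05 was found for 97 and 124 broad clusters (3.23 and 4.12%). For the other clusters these shares were 5.38 and 5.65%. The Post libraries of experiment #2 were on lane 4 with 1 Mid library, and the Pre libraries on lane 3 with the other 4. With lane as a term, 221 clusters were called from Mid to Post, 62 up and 159 down.

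The comparison of Fed with Mid asks what differs between a fasted mouse that can enter torpor and one that kept its food, both at a low ambient temperature. Here the broad clusters differed from the others mainly among those lower in Mid. There were 544 higher in Mid (18.1%) and 600 lower (19.96%), against 16.6% and 18.6% of all clusters and 18.95% and 14.8% of others of like level. Library size alone gave 207 higher and 503 lower, with the median of all clusters moved from 0.00258 to -0.12. Mt2, Slc39a14 and Pdk4 gave the largest positive values together with Mt1, at 3.44 (SE 0.39, FDR = 4.52e-07), and Lrch1, at 3.398 (SE 0.35, FDR = 1.09e-07). Lrrc38, at 29.2, 14, 16.9 and 15.3 TPM in Fed, was among the lowest in Mid with -2.86 (SE 0.30, FDR = 1.54e-07), and Ky followed with -2.33 (SE 0.22, FDR = 6.12e-08). The largest value in this direction was that of Gm28653 (418 bp), with -2.87 (SE 0.32, FDR = 3.24e-07). The long nuclear RNA Neat1 (3719 bp) was lower in Mid than in Fed by -0.91 (SE 0.18, FDR = 0.000275), and none of its other differences between groups of experiment #1 passed the test. Of the 3 broad clusters of hemoglobin genes, 3 were lower in Mid than in Fed. Markers of red blood cells summed to between 2718 and 12643 TPM in Fed and 2371 to 4466 in Mid, and their part in other differences was not tested.

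Of the gene lists, that of protein breakdown held the ubiquitin ligases Trim63 and Fbxo32, which were higher in Mid than in Pre, HiT and Fed. Over all clusters, 15.4% rose and 14.8% fell from Pre to Mid, 17.5% and 17.5% from Mid to Post, 19.2% were higher and 21.8% lower in Mid than in HiT, and 16.6% and 18.6% than in Fed, and the counts of the lists stand beside these shares. The list of ubiquitin, proteasome and autophagy genes held 14 broad clusters, of which 9 rose and 1 fell from Pre to Mid, 2 rose and 8 fell from Mid to Post, and 10 were higher and 0 lower in Mid than in HiT and also than in Fed. Their median log2 fold change from Pre to Mid was 0.74, against 0.00568 for all clusters. In experiment #2, 9 rose and 0 fell from Pre to Mid. Trim63 (701 bp), the ubiquitin ligase MuRF1, was at 169, 185, 130.1 and 134 TPM in Pre, between 255 and 1195 TPM (median 786) in Mid and 99.9, 129.8, 138 and 144 in Post, without overlap. It changed by 2.42 (SE 0.26, FDR = 2.66e-07) and -2.63 (SE 0.26, FDR = 3.68e-08), and it was higher in Mid than in HiT by 1.44 (SE 0.24, FDR = 4.04e-05). Gabarapl1 (700 bp), which coats autophagosomes, changed by 2.05 (SE 0.21, FDR = 1.17e-07) and -2.63 (SE 0.22, FDR = 2.47e-09). Fbxo32 (930 bp), the ligase atrogin-1, gave 1.42 (SE 0.17, FDR = 1.5e-06), with Pre and Mid overlapping at their edges, and the kinase Ulk1 (536 bp), which starts autophagy, gave 1.44 (SE 0.21, FDR = 9.43e-06). Usp2 (460 bp), a deubiquitinase, was at 67.2, 44.2, 42.5 and 37 in HiT and between 87.2 and 156 TPM (median 121) in Mid, without overlap, with 1.28 (SE 0.12, FDR = 7.02e-09).

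The lists of fuel use differed from each other. Of 20 broad clusters of the tricarboxylic acid cycle and fatty acid oxidation, 8 rose and 0 fell from Pre to Mid, 0 rose and 8 fell from Mid to Post, 14 were higher and 0 lower in Mid than in HiT, and 12 were higher and 0 lower than in Fed, against 15.4% of all clusters that rose from Pre to Mid, 17.5% that fell from Mid to Post and 19.2% and 16.6% that were higher in Mid than in HiT and Fed. The fatty acid transporter Cd36 (582 bp) rose by 0.7999 (SE 0.12, FDR = 2.1e-05), the acyl-CoA synthetase Acsl1 (417 bp) by 0.61 (SE 0.0919, FDR = 1.78e-05), and Cpt1b (1061 bp), the gate of fatty acids into muscle mitochondria, was higher in Mid than in HiT by 0.36 (SE 0.0843, FDR = 0.00132). Of 17 broad clusters of the respiratory chain and ATP synthase, 0 rose and 4 fell from Pre to Mid, whereas 9 were higher and 0 lower in Mid than in HiT and 8 and 0 than in Fed. The last 8 were 2 with upper-quartile scaling and 0 with library size alone, the 4 that fell were 11 and 1, and the 9 were 9 and 5. Of 18 of glycolysis and glycogen, 1 rose and 4 fell from Pre to Mid, 0 rose and 3 fell from Mid to Post, 8 were higher and 0 lower in Mid than in HiT, but 3 were higher and 6 lower than in Fed. Hexokinase Hk2 (814 bp) was at 128, 142, 113 and 78.9 TPM in HiT and between 170.5 and 335 TPM (median 243) in Mid, without overlap, with 0.98 (SE 0.11, FDR = 1.38e-07). Of 8 broad clusters of lipid synthesis and cholesterol, 5 rose and 0 fell from Pre to Mid and 0 rose and 5 fell from Mid to Post. The members called there include genes of lipid storage and release, and the list also holds broad clusters of the synthesis genes Acacb, Fdft1, Gpam and Scd1. From Pre to Mid, Angptl4 (583 bp), an inhibitor of lipoprotein lipase, gave 2.62 (SE 0.45, FDR = 7.55e-05). Plin4 (906 bp), a coat protein of lipid droplets, gave 1.19 (SE 0.14, FDR = 1.22e-06), and the triglyceride lipase Pnpla2 (564 bp) gave 1.29 (SE 0.17, FDR = 4.34e-06).

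Regulators of fasting were also represented by broad clusters. Of 16 of insulin, mTOR and FOXO signalling, 6 rose and 1 fell from Pre to Mid, where 15.4% and 14.8% of all clusters did, and 8 were higher and 1 lower in Mid than in HiT, where 19.2% and 21.8% were. Foxo1 (1141 bp), a transcription factor of the fasted state, was at 29.1, 28.8, 23.8 and 25.5 TPM in Pre, between 29.6 and 84 TPM (median 54.6) in Mid and 26.8, 22.6, 19.3 and 18 in HiT. Mid was above both, with 1.14 (SE 0.20, FDR = 9.08e-05) and 1.26 (SE 0.20, FDR = 1.6e-05). Klf15 (462 bp) rose by 1.57 (SE 0.24, FDR = 2.25e-05) and Irs2 (1464 bp), an adaptor of the insulin receptor, by 1.14 (SE 0.24, FDR = 0.000735). Ppara (727 bp), the nuclear receptor that turns on fatty acid oxidation, was at 29.9, 25.2, 24.3 and 31.7 in Pre, between 44 and 92.7 TPM (median 64.7) in Mid and 31.6, 30.9, 26.8 and 21.1 in HiT, again with Mid above both, at 1.36 (SE 0.13, FDR = 5.96e-08) and 1.18 (SE 0.13, FDR = 7.81e-08). The nuclear receptor Esrra (525 bp) gave 0.29 (SE 0.15, FDR = 0.145), which did not pass the test.

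Of 15 broad clusters of immediate early and stress transcription factors, 8 rose and 1 fell from Pre to Mid, where 15.4% and 14.8% of all clusters did, and 1 rose and 9 fell from Mid to Post, where 17.5% and 17.5% did. Cebpd (1010 bp) rose by 2.47 (SE 0.30, FDR = 1.36e-06) and Myc (453 bp) by 2.04 (SE 0.25, FDR = 1.54e-06). Klf9 (1485 bp), a target of glucocorticoids, was higher in Mid than in HiT by 1.04 (SE 0.13, FDR = 5.64e-07). Of 15 of heat shock proteins and chaperones, 8 rose and 0 fell from Pre to Mid, and 5 were higher and 5 lower in Mid than in HiT. Hspb1 (831 bp) was at 181, 193, 165 and 229 TPM in Pre, between 203 and 417 TPM (median 366) in Mid and 1151, 856, 579 and 439 in HiT, so that HiT lay above all Mid libraries while Pre and Mid overlapped, with 0.98 (SE 0.13, FDR = 4.24e-06) and -1.13 (SE 0.12, FDR = 5.28e-08). The inducible Hspa1a (822 bp) rose by 0.84 (SE 0.22, FDR = 0.00483) and was higher in Mid than in HiT by 0.68 (SE 0.22, FDR = 0.0139). Of the 4 of the circadian clock and its output, Bhlhe40 (434 bp) changed by -1.62 (SE 0.15, FDR = 3.53e-08) and 1.89 (SE 0.15, FDR = 1.31e-09), and Dbp (842 bp) and Nr1d1 (708 bp) were higher in Post than in Pre by 0.99 (SE 0.14, FDR = 0.000262) and 1.14 (SE 0.20, FDR = 0.00195).

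Of the lists, that of the sarcomere held the most broad clusters. Of 44 sarcomere genes, 33 had a broad cluster, 48 clusters in all. From Pre to Mid, 6 rose and 3 fell, which upper-quartile scaling turned to 5 and 7, against 15.4% and 14.8% of all clusters. From Mid to Post, 11 rose and 4 fell, and 13 were higher and 8 lower in Mid than in HiT, where 19.2% and 21.8% of all clusters were. Ankrd2 (1612 bp), a stretch-responsive ankyrin repeat protein, was at 567.7, 669, 579.8 and 754 TPM in Pre, between 1119 and 2262 TPM (median 1642) in Mid and 1359, 1895, 1483 and 1710.0 in Post. Mid and Post lay above Pre, with 1.49 (SE 0.14, FDR = 3.61e-08) and, from Pre to Post, 1.39 (SE 0.15, FDR = 7.97e-06). Flnc (862 bp), a filamin of the Z disc, rose by 0.86 (SE 0.13, FDR = 1.9e-05), Tcap was higher in Mid than in HiT by 0.53 (SE 0.095, FDR = 8.62e-05), and Acta1 gave -0.28 (SE 0.11, FDR = 0.0387) and -0.15 (SE 0.11, FDR = 0.296). Of 11 of the sarcoplasmic reticulum and membrane excitation, 1 rose and 4 fell from Pre to Mid. Jph2 (1031 bp), which ties the reticulum to the cell membrane, changed by -0.66 (SE 0.13, FDR = 0.000292) and 0.8013 (SE 0.13, FDR = 2.12e-05), the slow calsequestrin Casq2 (552 bp) by -0.57 (SE 0.13, FDR = 0.0013), and the slow calcium pump Atp2a2 (1629 bp) was higher in Mid than in HiT by 0.6952 (SE 0.17, FDR = 0.00181).

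The remaining lists, apart from the long non-coding RNAs, were called in both directions, beside 15.4% up and 14.8% down of all clusters from Pre to Mid. Of 18 broad clusters of splicing factors and RNA-binding proteins, 6 rose and 2 fell from Pre to Mid and 2 rose and 8 fell from Mid to Post, which library size alone turned to 0 and 1 in the first step. Of 12 of ribosomal proteins and translation factors, 3 rose and 5 fell from Pre to Mid, which library size alone turned to 2 and 1, and 1 was higher and 5 lower in Mid than in HiT. Eif4ebp1 (536 bp), a brake on cap-dependent translation, rose by 1.02 (SE 0.14, FDR = 4.41e-06), and its partner Eif4e (547 bp), the cap-binding factor, changed by -0.69 (SE 0.12, FDR = 0.000124). Of 11 of myogenic and MEF2 regulation 2 rose and 2 fell from Pre to Mid, of 16 of signalling scaffolds and calcium kinases 1 and 1. Of 3 long non-coding RNAs 2, Neat1 and Malat1, were lower in Mid than in Fed, where 18.6% of all clusters were. In 7 of 144 pairs of a list or the histones with a comparison the balance of calls turned under another scaling, and those of the sarcomere, splicing, ribosomal and clock genes from Pre to Mid are among them.

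The comparison of Mid with Dep asks what differs when torpor is interrupted by touch, and few broad clusters differed from Mid. In Dep, 32 were higher (1.06%) and 46 lower (1.53%), against 1.16% and 0.872% of all clusters and 1.18% and 0.662% of others of like level. The calls depended on the processing. Library size alone gave 0 higher and 1 lower, and without 1 library the total ranged from 15 without Dep 2 to 127 without Dep 3. The replicate number as a block gave 137. Myf6 (648 bp), a myogenic factor, was at 47.7, 55.7, 39.97 and 38.1 TPM in Dep and between 21.2 and 40.4 TPM (median 25.5) in Mid, which overlapped, with 0.76 (SE 0.16, FDR = 0.0163) and an FDR of 0.0914 without Dep 2. The clock repressor Nr1d1 (708 bp) was at 14.9, 13.2, 11.3 and 9.63 in Dep and between 11.1 and 28.4 TPM (median 22.5) in Mid, which overlapped, with -0.75 (SE 0.18, FDR = 0.0287), and lost the call without Dep 2, 3 or 4. Gm10762 (659 bp) and Fkbp8 (435 bp), an inhibitor of apoptosis and mTOR signalling, were lower in Dep by -0.9033 (SE 0.17, FDR = 0.00751) and -0.81 (SE 0.16, FDR = 0.0146). The 4 histone clusters called higher in Dep rested on Dep 1. Hist2h3c2 was at 37.9, 2.1, 2.34 and 1.04 TPM in the Dep libraries, and its log2 fold change moved from 2.26 to -0.36 without Dep 1. Neutrophil markers had clusters for 4 of 8 genes and summed to between 0.29 and 117 TPM in Dep, against at most 0.76 in Mid, and their part was not tested.

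Between Pre and Post, 38 broad clusters were higher in Post (1.26%) and 31 lower (1.03%), against 1.05% and 0.798% of all clusters and 1.15% and 0.705% of others of like level. Library size alone gave 7 and 3, and without Post 1 the total fell to 23. Besides Arpp19, Krt80 (722 bp), a keratin, was higher in Post by 2.03 (SE 0.34, FDR = 0.0015), with 2.25, 1.67, 1.66 and 2.48 TPM in Pre and 8.23, 6.24, 6.96 and 10.1 in Post, which did not overlap. Ppip5k1 (421 bp), a kinase of inositol phosphates, was higher in Post by 1.82 (SE 0.19, FDR = 7.29e-06). Asb15 (486 bp), a muscle adaptor of ubiquitin ligases, was lower in Post by -2.13 (SE 0.26, FDR = 4.65e-05), and Abr (666 bp) by -1.298 (SE 0.21, FDR = 0.00149). Over all 6 groups of experiment #1, 2231 broad clusters (74.2%) differed, against 70.6% of all clusters and 71.7% of others of like level.

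Exon clusters mostly moved with the 5′ end of their gene. Of the 250 broad exon clusters, 41 rose and 9 fell from Pre to Mid, 15 rose and 36 fell from Mid to Post, and 33 were higher and 12 lower in Mid than in HiT. These are 16.4% up and 3.6% down from Pre to Mid against 15.4% and 14.8% of all clusters, 6% and 14.4% from Mid to Post against 17.5% and 17.5%, and 13.2% and 4.8% from HiT to Mid against 19.2% and 21.8%. For 223 of them, in 165 genes, the gene also had a cluster at its 5′ end. Among these, 41 exon clusters were called from Pre to Mid, 40 of them with the same sign as the 5′ cluster, and 31 with both called in the same direction and 1 in opposite directions. From HiT to Mid, 28 of 31 had the same sign, and from Fed to Mid 44 of 50. Pdk4 gave 3 broad exon clusters of 556, 1632 and 609 bp, with log2 fold changes from Pre to Mid of 3.31, 3.58 and 3.27 beside 3.42 for its 5′ cluster. Tacc2, a protein of the centrosome, gave 1.98 (SE 0.16, FDR = 1.45e-08) at its 542 bp 5′ cluster and 1.703 (SE 0.27, FDR = 4.11e-05) at a 5152 bp exon cluster. Within 1 gene these tags are not independent, since they may come from the same RNAs.

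Among the widest exon clusters, named after their values were seen, that listed with Cx3cr1 and that of Xirp2 also differed between groups. A 6024 bp cluster (chr9:120013802-120019825, minus strand) was listed with Cx3cr1, which encodes the fractalkine receptor of macrophages. The label only names the first protein-coding gene, by identifier, with an annotated transcript over the peak. Whether these tags come from Cx3cr1 RNA was not tested. The cluster was at 18.9, 11.8, 15.2 and 21.7 TPM in Pre, between 34.9 and 55.7 TPM (median 46.8) in Mid and 18.1, 22.9, 21.2 and 13.6 in Post. Mid lay above both, with 1.52 (SE 0.25, FDR = 6.47e-05) and -1.28 (SE 0.25, FDR = 0.000302). The macrophage markers summed to between 59.7 and 110 TPM in Pre and between 58.4 and 90.6 in Mid, and the part of these cells was not tested. The 9290 bp Xirp2 cluster, over the gene of an actin-binding protein of the sarcomere, was at 221, 377, 294 and 368 in HiT and between 122 and 198 TPM (median 167) in Mid, with no overlap and -1.12 (SE 0.22, FDR = 0.000181). The 6033 bp Naca cluster rose from Pre to Mid by 0.6966 (SE 0.21, FDR = 0.0141). The 17340 bp Ahnak and 17142 bp Ttn clusters gave 0.32 (SE 0.25, FDR = 0.355) and 0.53 (SE 0.27, FDR = 0.142). None of the 8 mitochondrial clusters was called in these comparisons except 1 that was higher in Mid than in Fed.

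Among broad clusters, mice varied more over exons than at 5′ ends. In experiment #1 the median biological coefficient of variation from edgeR was 0.14 for broad clusters and 0.12 for others of like level, and in experiment #2 it was 0.13 for both. The coefficient of variation of TPM within groups gave 18.2 and 17.2% in experiment #1. There the edgeR value, not matched for level, was 0.13 for broad clusters at 5′ ends, 0.26 over exons and 0.27 at 2000 bp or more. Without the Gm42418 cluster, broad exon clusters held between 1.62 and 4.33% of the cluster tags in experiment #1 and between 1.44 and 1.80% in experiment #2. The range was widest in HiT, where HiT 4 was at 4.33% and the other libraries at 1.92, 2.52 and 2.66%.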

How the data were processed

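Capped 5′ ends of total RNA from the soleus muscle of 38 mice were sequenced by nAnT-iCAGE. As described by the authors, reads were trimmed and mapped to mm10 with BWA and HISAT2, 5′ ends were taken as start sites and joined into clusters, and the deposited tag counts give the number of tags per cluster and library. The deposited TPM values are these counts scaled by the authors to the same total of mapped tags per library, which includes tags outside the clusters. The members and the gene lists were chosen with earlier results of these data known, so no test here is independent of that choice.

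Clusters with a tag in an experiment were fitted in R 4.3.3 with edgeR 4.0.16 (TMM scaling, quasi-likelihood F test, all libraries of an experiment in 1 fit), 10776 clusters in experiment #1 and 10816 in experiment #2, and p-values were adjusted over all clusters by the Benjamini-Hochberg method (FDR). A positive log2 fold change is higher in the second group named, and SE is its standard error. DESeq2 1.42.0, other scalings, width limits of 350 and 450 bp, a filter, left-out libraries and a replicate block were tried as alternatives. Levels are TPM of the first to last library of a group, and for Mid of experiment #1 the lowest, highest and median. Sequences were scanned in Python 3.11.15 with pandas 2.3.3, and GENCODE M21 gave places and genes. No genome sequence was used. On simulated counts for 10772 clusters, 93% of 200 clusters changed by a log2 fold change of 1 were recovered for Pre to Mid of experiment #1 and 68.5% for Pre to Mid of experiment #2 (10815 clusters).

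Genes were named from broad clusters with a 5′ end of the gene within 500 bp by a rule: the 10 widest, the 10 highest, the 5 largest called changes in each direction of each comparison, the 3 smallest FDR over the 6 groups, and examples from the lists. Exon clusters and clusters outside this rule were named after their values were seen. Each cluster has 1 set of coordinates for all libraries. Replicate numbers were not taken as pairs of mice. The correlation of deviations between libraries of the same number ranged from -0.63 to 0.44, with a median of -0.08. Between libraries of other numbers it ranged from -0.57 to 0.59, with a median of 0.011. Such wide ranges cannot show whether the numbers carry a pairing.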

Additional observations from a re-analysis of the deposited data

Results flagged for a closer look

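Of 168 groups examined over 24 measures, 10 held a library that stood farther from its group than the criterion for an extreme value allows, where chance gives about 1 in 20. Each value is given without an explanation.

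The library Mid 6 stood apart in 3 clusters. Pdk4 was at 1361 TPM there against 4534 to 5885 in the other Mid libraries of experiment #1. Lrrc38 was at 5.72 TPM against 1.42 to 2.68, and the 5′ cluster of Tacc2 at 129.9 TPM against 310.2 to 445. In all 3, Mid 6 lay on the side of the Pre libraries.

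Hist2h3c2 stood apart in Dep 1, at 37.9 TPM against 1.04 to 2.34 in the other Dep libraries, and in Mid 11 of experiment #2, at 65.5 TPM against 0.828 to 7.33. Mustn1 was at 335.7 TPM in Post 4, against 249 to 259 in the other Post libraries, and at 395.8 TPM in Mid 9 of experiment #2, against 164.6 to 230.7. Myhas was at 5.68 TPM in Mid 2 and at 2.48 or less in the other Mid libraries.

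The 17142 bp Ttn cluster was at 351.4 TPM in HiT 1 and between 549.4 and 554.8 in the other HiT libraries. The share of tags in broad clusters without the 5 highest was 47.3% in Dep 4 and between 48.7 and 48.95% in the other Dep libraries.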

How the results depend on the processing

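The excess of broad clusters higher in Mid than in HiT kept its sign in all 28 fits that left out 1 library (8.49 to 12.5 percentage points over like level, 10.4 with all) and in 13 other settings, and so did the excess that fell from Mid to Post. Scaling by library size alone cut the counts to 483 broad clusters called from Pre to Mid, 573 from Mid to Post, 762 from HiT to Mid, 710 from Fed to Mid, 1 from Mid to Dep, 10 from Pre to Post and 1404 over all groups. It also turned the difference from like level in the share that fell from Pre to Mid to 1.47 and in the share that rose from Mid to Post to 1.84 percentage points. Mid to Dep gave 120 calls with the likelihood ratio test, 137 with the replicate block, 164 with DESeq2 and 1 with only the compared groups. Pre to Post gave 104 with only the compared groups and 118 with DESeq2. With lane as a term, Mid to Post of experiment #2 gave 221. The median share of tags was 48.7 and 52.3% without the 5 highest clusters, 65.6 and 65.99% with a limit of 350 bp, and 50.01 and 52.2% with 450 bp.

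With 1 library left out, Mid to Dep gave 15 to 127 calls, and the counts that moved most were 41 without Dep 1, 17 without Dep 4, 38, 46, 45 and 122 without Mid 2, 3, 5 and 6, and 51 without Post 1. Its share lower in Dep differed from like level by -0.0244 (without Dep 4) to 2.005 percentage points. Pre to Post gave 23 to 88 calls, with 38 without Post 2 and 35, 40, 43 and 40 without Pre 1 to 4, and Pre to Mid of experiment #2 gave 116 to 520. From Mid to Dep, the log2 fold change of Hist2h3c2 ranged from -0.36 to 2.62, of Hist1h2ag from -0.26 to 2.33 and of Hist1h2bk from -0.24 to 2.39, lowest without Dep 1. Of 83 changes of named clusters, 24 lost their call in 139 of 2620 alternatives and 3 turned direction. The cause of these shifts was not tested. The replicate number as a block gave 562 up and 390 down from Pre to Mid and, outside Mid to Dep, moved no count of experiment #1 by more than 1.5 times. No paired analysis was possible for experiment #2 because its Mid libraries share no number with Pre or Post.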
